A study of Mus musculus with 27 samples.

Results

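The Hox genes of the mouse were examined as the 39 rows of the RNA-Seq table, of 24065 genes in all, whose symbol is Hoxa, Hoxb, Hoxc or Hoxd followed by a paralog number. They comprise 11 Hoxa, 10 Hoxb, 9 Hoxc and 9 Hoxd genes. The rule uses the symbols and no measured value, but it was set with earlier results of these data known. RNA-Seq was done on whole E8.5 embryos of the C57BL/6J strain, with 3 WT and 3 Dnmt3b-/- littermates and 1 library for each. The mutants descend from mice with a loxP-flanked Dnmt3b allele crossed to an ACTB-Cre deleter line, in which the ubiquitous beta-actin promoter drives Cre, and were produced by intercrosses of heterozygous carriers. They lack catalytically active DNMT3B, one of the 2 enzymes that lay down DNA methylation after implantation, in every tissue, and WT littermates come from the same crosses. Total counts on genes lay between 41489332 and 58470286 per library. Values are given below as normalized counts, which are counts scaled to a common library size with TMM factors, or as FPKM where levels of different genes are compared.

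Hox genes encode homeodomain transcription factors that give the cells along the head-to-tail axis their regional identity. In mammals they lie in 4 clusters on different chromosomes, and the genes of a cluster are switched on one after another, from the low paralog numbers, which act in hindbrain and neck, to the high ones, which act in the lumbar, sacral and tail regions, the limbs and the genital tubercle. Each HOX protein binds DNA together with TALE cofactors of the PBX and MEIS families. Retinoic acid, WNT and FGF signals and the CDX proteins start and extend their transcription, and Polycomb and trithorax proteins keep it off or on. In the mm10 assembly (GRCm38) the Hoxa genes span chr6:52155367-52260880, the Hoxb genes chr11:96194316-96368253, the Hoxc genes chr15:102921131-103036852 and the Hoxd genes chr2:74668225-74765142, and all Hox genes of a cluster lie on the same strand.

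Dnmt3b, the targeted gene, was read first as a check of the labels. Its normalized counts were 7287, 14003 and 6301 in WT embryos 1, 2 and 3 and 4076, 4557 and 4756 in Dnmt3b-/- embryos 1, 2 and 3. The genotypes did not overlap, and the log2 fold change was -1.04 ± 0.27 (SE, edgeR adjusted p = 0.0169). Transcripts that lack the deleted exons can still be counted over the rest of the gene. WT embryo 2 had the highest level of Dnmt3b, and without it the log2 fold change was -0.61 (adjusted p = 0.0026). Without any one of the mutants the adjusted p lay between 0.0555 and 0.0613. WT embryo 2 also stood apart in markers of other tissues.

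The 5 genes of the yolk sac endoderm, Ttr, Afp, Apoa1, Apob and Rbp4, had summed normalized counts of 45955, 138533 and 17101 for WT embryos 1, 2 and 3, whereas mutants 1, 2 and 3 had 34066, 22061 and 9577. WT embryo 2 was thus the highest and Dnmt3b-/- embryo 3 the lowest. The erythroid list (Hba-x, Hbb-bh1, Hbb-y, Gata1 and Klf1) summed to 44511, 11733 and 65924 in WT and 42027, 31913 and 14611 in mutant embryos, and the same 2 embryos were the lowest. The caudal epiblast and tailbud list (T, Wnt3a, Fgf8, Tbx6, Nkx1-2, Cdx2 and Sp5) was highest in them, at 13520.5 in WT embryo 2 and 13094 in Dnmt3b-/- embryo 3, against 7281 to 9052 in the others. No member of the yolk sac or erythroid list passed the test between the genotypes (0 of 5 and 0 of 5). Over all tested genes, 17.6% were called higher and 18.1% lower (adjusted p below 0.05). The median log2 fold changes of the yolk sac and erythroid lists were -1.05 and -0.33. With WT embryos so far apart, the test could miss such differences, and the absence of calls does not show equal levels. Of the trophoblast and decidua list, the defining genes Tpbpa, Prl8a2 and Prl3d1 had no count in any embryo, and 1 of its 3 tested members was called lower. Defining markers of the other embryonic tissues, such as Tbx6, Meox1, Sox1, Hand1, Osr1 and Nkx2-5, were counted in all 6 embryos. In bulk samples such as these, fewer cells of a type and less RNA per cell cannot be told apart. The part of these tissue differences in the Hox results was not tested, and the counts of called Hox genes are therefore also given without WT embryo 2.

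**Figure D1:**
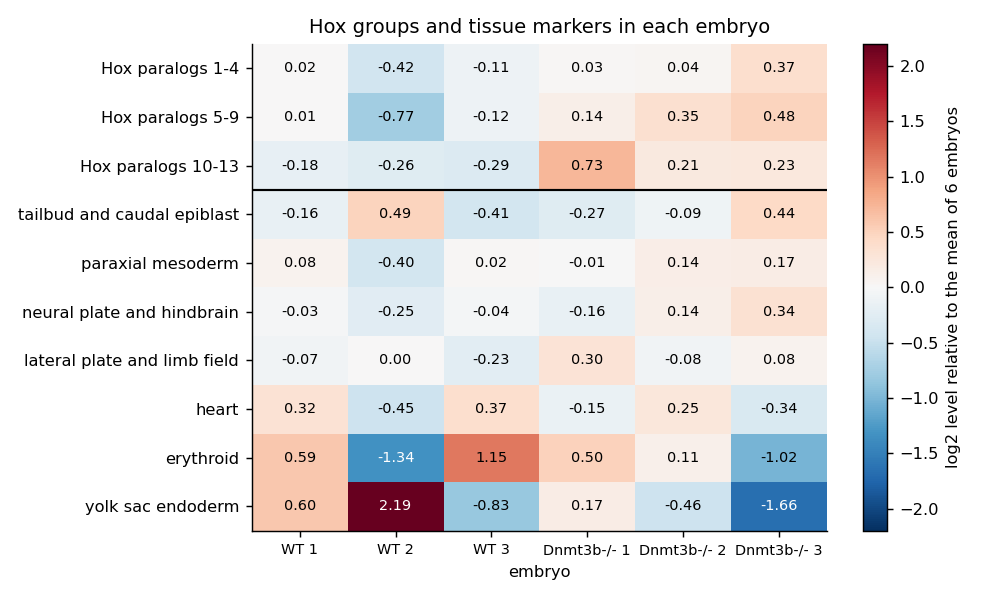
Levels in each of the 6 E8.5 embryos (columns), on a log2 scale relative to the mean of the 6. The upper 3 rows give the median deviation of the tested Hox genes by paralog group, and the lower rows the summed normalized counts of tissue marker lists; WT embryo 2 was low for Hox paralogs 5-9 (-0.77) and high for yolk sac endoderm (2.19), and Dnmt3b-/- embryo 3 was the reverse (0.48 and -1.66).

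In WT embryos the level was lower towards the high paralog numbers. The median over genes of the mean WT level was 7.14 FPKM for the 12 genes of paralogs 1-4, 4.95 FPKM for the 15 genes of paralogs 5-9 and 0.323 FPKM for the 12 genes of paralogs 10-13. Taken embryo by embryo, the median was 8.51, 5.84 and 7.35 FPKM for paralogs 1-4 and 5.81, 3.16 and 5.41 FPKM for paralogs 5-9, so that every embryo was higher for the former, with the lowest of the former just above the highest of the latter. The medians of paralogs 10-13, from 0.177 to 0.311 FPKM, lay apart from both. The mean exceeded 1 FPKM for all 12 genes of paralogs 1-4, for 13 of 15 of paralogs 5-9 and for 1 of 12 of paralogs 10-13, which was Hoxa10 at 1.31 ± 0.178 FPKM (mean ± SD, n = 3).

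The order along a cluster was not smooth. In the Hoxa cluster, Hoxa6 lay at 0.312 ± 0.216 FPKM between Hoxa5 (4.95 ± 1.85) and Hoxa7 (5.5 ± 1.32). In the Hoxb cluster, Hoxb2, which acts in the facial nerve territory of the hindbrain, reached 20.8 ± 1.26 FPKM and Hoxb9 20.5 ± 3.94 FPKM, and these means differed by less than their SD. Hoxb5 was the exception in the middle of that cluster at 0.792 ± 0.332 FPKM. Hoxc8, at 12.97 ± 1.95 FPKM, led the Hoxc cluster and Hoxd1, at 10.2 ± 1.95 FPKM, the Hoxd cluster. Paralog group 9 carried the largest sum of all numbers, 38.4 ± 9.76 FPKM over its 4 genes, of which Hoxb9 held the most, and the next highest sum was lower by less than this SD.

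**Figure D2:**
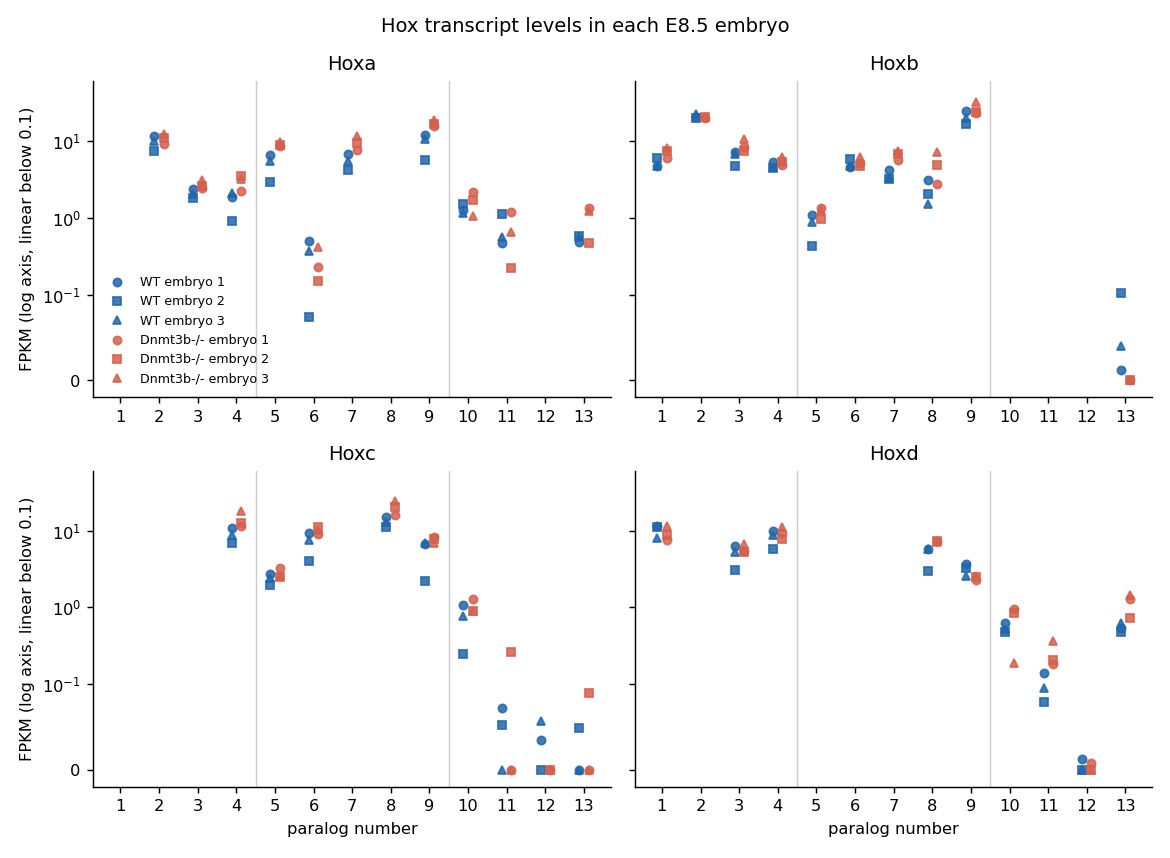
FPKM of 38 of the 39 Hox genes in each embryo (y axis, logarithmic above 0.1 FPKM and linear below) by paralog number (x axis), 1 panel per cluster, WT blue and Dnmt3b-/- red, with vertical lines between paralog groups. Levels lie mostly above 1 FPKM up to paralog 9 and mostly below from paralog 10, with Hoxa6 as a low gene among abundant neighbours.

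The genotypes were then compared to ask which Hox genes change when DNMT3B is missing. Of the 39 genes, 34 had a mean of at least 10 counts and were tested among 15114 genes. The 5 others, Hoxb13, Hoxc11, Hoxc12, Hoxc13 and Hoxd12, all belong to paralogs 10-13. Hoxb13 had 1, 6 and 3 raw counts in WT embryos and 0, 0 and 0 in mutants, and the other 4 had 0 to 10 in any embryo. At 3 counts, the limit that a count of 0 allows equals 2.38 to 3.5 normalized counts, depending on the library. Hoxb13 exceeded it in WT embryo 2, at 6.89 normalized counts, and when genes of low count were tested as well its p was 0.043 before and 0.12 after adjustment (edgeR, lower in mutants). None of the other 4 reached an unadjusted p below 0.05 in that fit.

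At an adjusted p below 0.05, 9 of the 34 tested Hox genes were higher in Dnmt3b-/- embryos and 0 were lower. Over all tested genes, 17.6% were called higher and 18.1% lower by the same rule. The 9 genes were Hoxa5, Hoxa7, Hoxa9, Hoxb1, Hoxb7, Hoxb8, Hoxc4, Hoxc8 and Hoxd13. No lower Hox gene was found either at an unadjusted p below 0.05 (0 of 34) or with DESeq2 or limma (0 and 0). Hoxd9 was lower at an unadjusted p of 0.0385 with total counts as the scaling and 0.0305 without WT embryo 3 (edgeR adjusted p = 0.0897 and 0.0854). With a fold change above 2 as a further condition, 2 genes remained, Hoxb8 and Hoxd13, against 2.12% of all tested genes higher and 3.78% lower. The changes were thus mostly small, and the fold of the 9 genes ran from 1.39 to 2.23. The replicates are individual littermate embryos, and the p-values weigh the genotype difference against the spread between such individuals. The main fit had no term for litter.

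The log2 fold change was above 0 for 28 of the 34 genes, against 47.9% of all tested genes. Its median was 0.49 over the Hox genes and -0.03 over all tested genes. All 3 mutant embryos lay above all 3 WT embryos for 14 of the 34 tested Hox genes, against 25.3% of all tested genes. All 3 lay below the WT embryos for Hoxd9 alone of the 34, against 26.5%. By cluster, the genes called higher were 3 of 11 Hoxa, 3 of 9 Hoxb, 2 of 6 Hoxc and 1 of 8 Hoxd genes, against 17.6% of all tested genes. The median log2 fold changes of the clusters were 0.39, 0.47, 0.54 and 0.28. Without WT embryo 2 they were 0.43, 0.30, 0.21 and 0.12, so that the order of the clusters changed. With a correction for GC content and length they were 0.59, 0.65, 0.60 and 0.49. In that fit 3, 4, 0 and 0 genes were called, against 12.4% of all tested genes. By paralog group the genes called higher were 2 of 12 of paralogs 1-4, 6 of 15 of paralogs 5-9 and 1 of 7 of paralogs 10-13. The medians of these groups were 0.23, 0.56 and 0.56, and 0.10, 0.30 and 0.43 without WT embryo 2. With the GC and length correction they were 0.55, 0.63 and 0.57, with 3 of 12, 3 of 15 and 1 of 7 called. The lower median of paralogs 1-4 thus depended on the processing. Summed over the 15 genes of paralogs 5-9, the level was 107, 66.3 and 90.5 FPKM in WT and 115, 127 and 148 FPKM in mutant embryos, without overlap. The sums of paralogs 1-4 overlapped, at 95.5 to 107 FPKM in WT and 100 to 131 FPKM in mutants, whereas those of paralogs 10-13 did not, at 4.71, 4.71 and 4.4 FPKM in WT and 8.41, 5.41 and 5.85 FPKM in mutant embryos.

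Single embryos weighed on these counts. Without WT embryo 2, 6 genes were called higher (Hoxa5, Hoxa7, Hoxa9, Hoxb1, Hoxb7 and Hoxc8) against 17.0% of all tested genes, 0 passed the fold of 2, and the median fell to 0.30. Without Dnmt3b-/- embryo 3 only Hoxb7 of the 34 stayed below 0.05, against 14.0% of all tested genes called higher. Without Dnmt3b-/- embryo 2 Hoxb7, Hoxd13 and, newly, Hoxa13 passed, against 11.9%, and without WT embryo 3 Hoxa9 and Hoxb7 did, against 14.0%. The share of Hox genes called thus lay below that of all genes when any one of these 3 embryos was left out. Hox exons had a median GC content of 53.4% against 50.3% over all tested genes. After a correction for GC content and length, 7 genes were called higher, against 12.4% of all tested genes, and 4 of them (Hoxa7, Hoxb1, Hoxb7 and Hoxb8) were among the 9. Hoxb7 was the one gene below 0.05 in all of the 16 other fits tried.

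**Figure D3:**
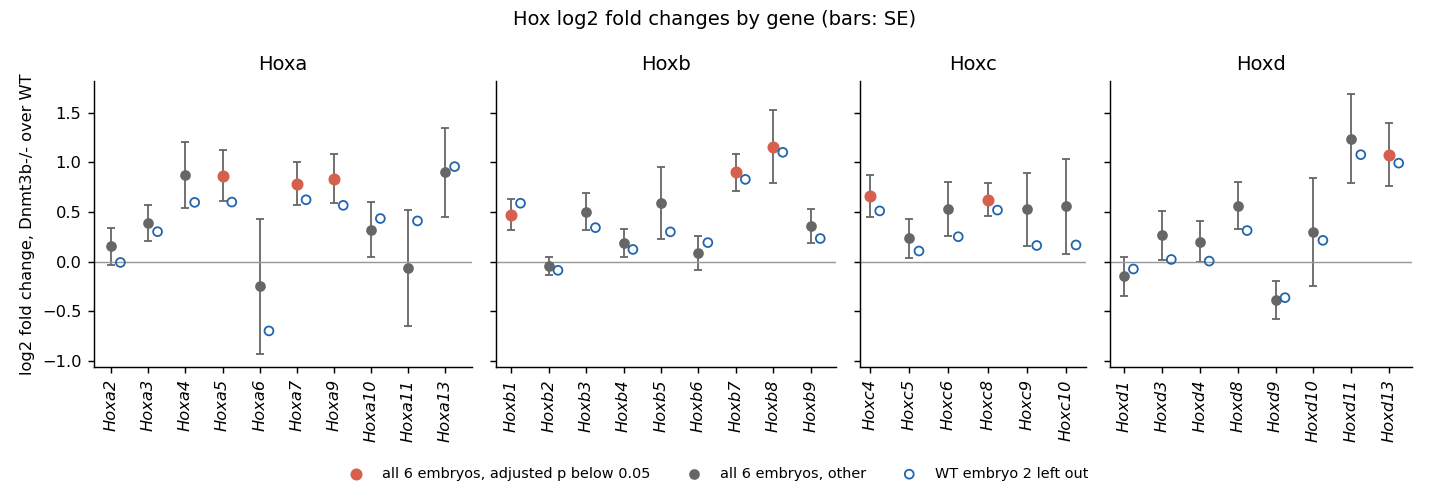
Log2 fold change between the genotypes, positive where Dnmt3b-/- was higher (y axis), for 33 of the 34 tested Hox genes, ordered by paralog number within each cluster. Filled points are from all 6 embryos with their SE as bars, red where the adjusted p was below 0.05, and open circles are without WT embryo 2, where the median over all 34 was 0.30 in place of 0.49.

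Among paralogs 1-4, the first genes to be transcribed along the axis, Hoxb1 and Hoxc4 passed the test. Hoxb1, which specifies the fourth rhombomere of the hindbrain, had 473, 592 and 473 normalized counts in WT embryos 1, 2 and 3 and 606, 729 and 800.2 in Dnmt3b-/- embryos 1, 2 and 3. All mutants lay above all WT embryos, the highest WT embryo being number 2, and the gene rose by a log2 fold change of 0.47 ± 0.15 (SE, n = 3 per genotype, edgeR adjusted p = 0.0435). Its 250 bases before the RefSeq start (chr11:96365508-96365757, + strand, GRCm38.p6) are shown because they hold, in capitals, the letters TGATNNAT, the form of site bound by PBX-HOX pairs, at bases 162 to 155 before the start.
Hoxb1: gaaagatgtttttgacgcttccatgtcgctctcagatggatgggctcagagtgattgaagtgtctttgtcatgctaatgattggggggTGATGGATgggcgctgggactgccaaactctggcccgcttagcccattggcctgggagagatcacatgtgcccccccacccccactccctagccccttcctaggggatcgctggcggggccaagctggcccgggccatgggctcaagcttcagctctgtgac
Hoxc4, which acts in the cervical and upper thoracic vertebrae, had 1031, 657 and 834 in WT and 1089, 1202 and 1698 in mutant embryos, and Dnmt3b-/- embryo 3 was clearly the highest. It rose by 0.66 ± 0.21 on the log2 scale (adjusted p = 0.0392), and without WT embryo 2 its log2 fold change was 0.51 with an adjusted p of 0.0748.

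The other 10 genes of paralogs 1-4 did not pass. The log2 fold change of Hoxb2 was -0.04 ± 0.09 (adjusted p = 0.729), the lowest of the Hoxb cluster, from 1628, 1539 and 1736 and 1545, 1608 and 1600.4 normalized counts in embryos that hardly differed. Hoxd1 had 1028, 1007 and 716 in WT and 675, 779.7 and 1035 in mutants, which overlapped, and a log2 fold change of -0.14 ± 0.20 (adjusted p = 0.6). With the GC and length correction the signs of both turned, to 0.30 and 0.15. Hoxa3, which patterns the third pharyngeal arch and thymus, and Hoxa4 and Hoxb3 did not overlap between the genotypes, and their log2 fold changes were 0.39 ± 0.18 (adjusted p = 0.133), 0.88 ± 0.33 (adjusted p = 0.0719) and 0.50 ± 0.19 (adjusted p = 0.067). Hoxa4 and Hoxb3 passed with DESeq2 (adjusted p = 0.0293 and 0.0166) and with the GC and length correction (edgeR adjusted p = 0.0227 and 0.0434). They did not pass with limma (adjusted p = 0.0619 and 0.0625) or with total counts as the scaling (edgeR adjusted p = 0.103 and 0.119). Of Hoxa3, 28 exonic bases are shared with the opposite-strand gene Hoxaas3, and the strand setting of the counting is not given in the sources used here. Hoxa2, Hoxb4, Hoxd3 and Hoxd4 had log2 fold changes between 0.16 and 0.26.

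Among paralogs 5-9, which pattern the thoracic region, Hoxa5, Hoxa7, Hoxa9, Hoxb7, Hoxb8 and Hoxc8 rose. Hoxb7 had 254, 193 and 198 normalized counts in WT embryos 1, 2 and 3 and 348, 406 and 451 in Dnmt3b-/- embryos 1, 2 and 3. The lowest mutant thus lay well above the highest WT embryo, and Hoxb7 rose by a log2 fold change of 0.90 ± 0.19 (SE, n = 3 per genotype, edgeR adjusted p = 0.00697), or by 0.83 on the log2 scale (adjusted p = 0.0142) without WT embryo 2. Its paralog Hoxa7 had 640.2, 392 and 518 in WT and 714, 885 and 1079 in mutant embryos. The gap between the highest WT and the lowest mutant embryo was narrower here, and Hoxa7 rose by 0.79 ± 0.21 on the log2 scale (adjusted p = 0.0208). Both genes of paralog group 7 therefore passed, and their summed level was 9.01 ± 1.83 FPKM in WT and 16.1 ± 2.79 FPKM in mutant embryos.

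Hoxa5, which is needed for the trachea, lung and the cervicothoracic vertebrae, had 590.3, 263 and 489 in WT and 771, 801 and 885 in mutant embryos, and rose by 0.87 ± 0.26 on the log2 scale (adjusted p = 0.0316). Hoxa9, known from blood stem cells and the posterior thorax, had 1877, 870.4 and 1650.5 in WT and 2391, 2559.6 and 2892 in mutants, and rose by 0.83 ± 0.25 on the log2 scale (adjusted p = 0.0303). WT embryo 2 was by far the lowest for both genes. Without it, on the log2 scale, Hoxa5 still rose by 0.60 (adjusted p = 0.0129) and Hoxa9 by 0.57 (adjusted p = 0.00594). Hoxc8, which acts in thoracic vertebrae and brachial motor neurons, had 1705, 1259.6 and 1474 in WT and 1819, 2284 and 2737 in mutant embryos, without overlap, and rose by 0.62 ± 0.17 on the log2 scale (adjusted p = 0.0204).

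Hoxb8, a regulator of vertebral and spinal cord identity and of myeloid progenitors, had the largest change of the Hoxb cluster. It had 389.8, 259.5 and 193 normalized counts in WT and 348, 627 and 907 in mutant embryos, where the lowest mutant fell below WT embryo 1 and the spread among mutants was wide. It rose by 1.16 ± 0.37 on the log2 scale (adjusted p = 0.0388), a fold of 2.23, and without WT embryo 2 its log2 fold change was 1.10 with an adjusted p of 0.0659. The 250 bases before the starts of Hoxa7 (chr6:52218574-52218823, - strand) and Hoxb8 (chr11:96281655-96281904, + strand) are shown because they are the windows of called genes that hold TTTATG, the form of site bound by CDX proteins, in capitals in either orientation (CATAAA on the opposite strand).
Hoxa7: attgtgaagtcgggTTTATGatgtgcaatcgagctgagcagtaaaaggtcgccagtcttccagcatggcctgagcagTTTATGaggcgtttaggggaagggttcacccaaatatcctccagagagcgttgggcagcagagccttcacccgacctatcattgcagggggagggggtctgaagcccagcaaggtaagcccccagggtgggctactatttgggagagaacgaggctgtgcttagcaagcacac
Hoxb8: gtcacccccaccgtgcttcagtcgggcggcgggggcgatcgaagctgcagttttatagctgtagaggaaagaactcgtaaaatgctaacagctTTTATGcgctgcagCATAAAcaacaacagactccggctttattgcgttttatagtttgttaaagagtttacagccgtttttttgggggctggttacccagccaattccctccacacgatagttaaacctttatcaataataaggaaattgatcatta
Both strands of each window were searched, and no match of one motif overlapped one of the other. Hoxa7 holds 2 copies, at bases 236 to 231 and 173 to 168 before the start, and Hoxb8 holds 2 that face each other, at bases 157 to 152 and 143 to 138, and also TGATNNAT on the opposite strand at bases 11 to 4. RefSeq windows were at hand for 22 of the 39 genes (24 windows) and for 7 of the 9 called ones, Hoxb7 and Hoxc8 being the ones without. TTTATG was found in 5 of the 24 Hox windows, 20.8%, and in 10.8% of all 32851 windows of that length, and TGATNNAT in 4, 16.7%, and in 7.68%. The Hox windows held a median of 12.5 CpG sites, against 6.0 over all windows. The numbers ran from 2 in Hoxd11, which also has a window with 20, to 35 in Hoxa13. Among called genes they ranged from 3 in Hoxa9 to 31 in Hoxd13.

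**Figure D4:**
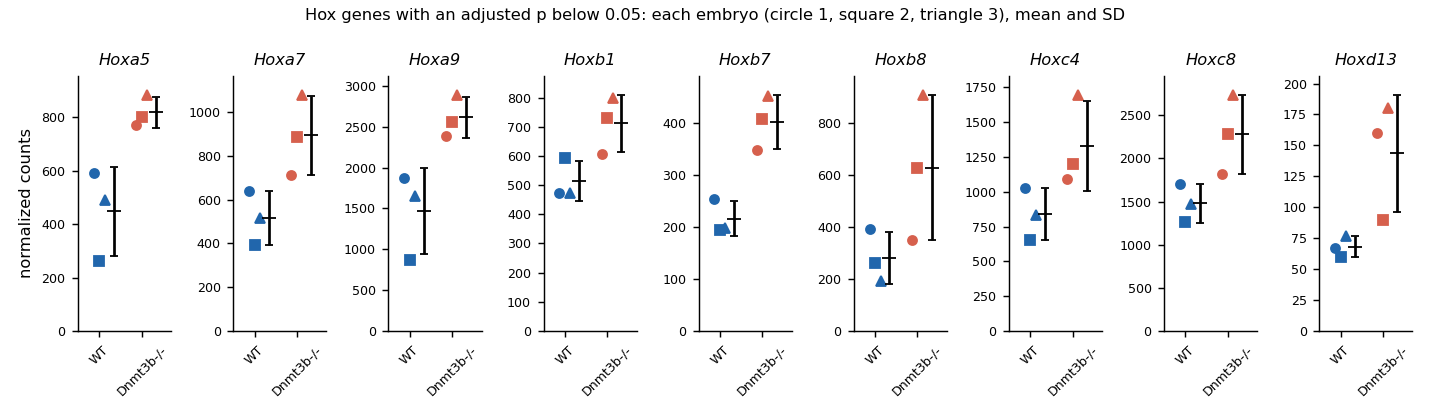
Normalized counts (y axis, from 0) of the 9 Hox genes with an adjusted p below 0.05 in each embryo, WT blue and Dnmt3b-/- red, with circles, squares and triangles for embryos 1, 2 and 3 and the mean with its SD (n = 3) in black. The genotypes are apart for 8 of the genes and overlap for Hoxb8, and Dnmt3b-/- embryo 3 is the highest for all 9. These genes were picked by that adjusted p in the same embryos, so the separation is in part built in.

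The other 9 genes of paralogs 5-9 did not pass. Hoxc9 and Hoxd8 did not overlap between genotypes, at 559, 183 and 572 against 686, 638 and 574 and 605, 311 and 602 against 753, 767 and 729.9 normalized counts, and their log2 fold changes were 0.53 ± 0.36 (adjusted p = 0.294) and 0.56 ± 0.24 (adjusted p = 0.0954). In both genes WT embryo 2 lay far below the other 2 WT embryos, and without it the values were 0.16 and 0.31. Hoxd8 passed with DESeq2 (adjusted p = 0.0357) but not with limma (adjusted p = 0.0764). Hoxc9 passed with WT embryo 2 left out together with the GC and length correction (edgeR adjusted p = 0.0173), a setting chosen after seeing the data. Hoxd9 ran the other way, with 373, 332 and 259 in WT and 227, 253 and 258 in mutant embryos. It was the one tested Hox gene whose mutants all lay below the WT embryos, though WT embryo 3 (259.3) and mutant 3 (258.4) were nearly equal. Its log2 fold change was -0.38 ± 0.19 (adjusted p = 0.147), and the sign turned, to 0.25, with the GC and length correction. Hoxb9, the most abundant of these genes, had a log2 fold change of 0.36 ± 0.17 (adjusted p = 0.13). Hoxa6 had 53.9, 8.04 and 39.8 and 25.1, 16.3 and 45.3 normalized counts, and WT embryo 2 was the lowest of the 6. Its log2 fold change of -0.25 ± 0.68 (adjusted p = 0.804) turned in sign under 5 of the other fits. Hoxc5 had 362, 254 and 319 and 432, 330.3 and 338, which overlapped, and the lowest value of its cluster at 0.23 ± 0.19 (adjusted p = 0.379). Hoxb5, Hoxb6 and Hoxc6 lay between 0.09 and 0.59.

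Paralogs 10-13 pattern the lumbosacral region, the limbs and the end of the trunk, and their transcription is starting at this stage. Hoxd13, which is required for digits and the genital tubercle, had 67.3, 59.7 and 77.0 normalized counts in WT embryos 1, 2 and 3 and 160.3, 89.9 and 180.2 in Dnmt3b-/- embryos 1, 2 and 3. WT embryos were close to each other, mutant 2 lay just above them and mutants 1 and 3 far above. Hoxd13 rose by a log2 fold change of 1.07 ± 0.32 (SE, n = 3 per genotype, edgeR adjusted p = 0.0299), a fold of 2.11, and without WT embryo 2 its log2 fold change was 0.99 with an adjusted p of 0.0592. Its mean level was 0.549 ± 0.0699 FPKM in WT and 1.16 ± 0.383 FPKM in mutant embryos, so that the rise concerned a gene of low level. Hoxd11, which shapes the forearm and kidney, had 28.5, 16.1 and 19.5 and 37.1, 42.0 and 73.7, without overlap. Its log2 fold change of 1.24 ± 0.45 (adjusted p = 0.0623) was the highest of all Hox genes and missed the threshold at these counts.

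Hoxa13, which acts in digits, hindgut and umbilical vessels, had 30.1, 36.7 and 35.4 in WT and 83.2, 29.2 and 78.2 in mutant embryos. Mutants 1 and 3 were high and mutant 2 was below every WT embryo, and the log2 fold change was 0.90 ± 0.45 (adjusted p = 0.153). It passed with the GC and length correction (1.67, adjusted p = 0.0331), its exons holding 68.1% GC, the highest share of any Hox gene. Hoxa10, Hoxa11, Hoxc10 and Hoxd10 overlapped between the genotypes, and their log2 fold changes lay between -0.06 and 0.56. Hoxa11 shares 568 exonic bases, 24.8% of its exons, with its antisense gene Hoxa11os.

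WT embryo 2 was the lowest of the 3 WT embryos for 25 of the 34 tested Hox genes and the highest for 6, against 41.4% and 35.9% of all tested genes. It was below the mean of WT embryos 1 and 3 by more than 1 on the log2 scale for 8 Hox genes, among them Hoxa6, Hoxc10, Hoxc9 and Hoxb5, against 4.04% of all tested genes. The median of this difference was -0.39 for paralogs 1-4, -0.56 for paralogs 5-9 and -0.26 for paralogs 10-13, and -0.02 over all tested genes. Towards the high-numbered end of the Hoxa cluster the embryo was high instead, with the largest values among WT embryos for Hoxa10, Hoxa11 and Hoxa13. The median SD of log2 levels within the WT embryos was 0.334 for Hox genes and 0.15 for all tested genes, and within mutants 0.259 and 0.171.

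The clusters also hold genes other than Hox. Of 14 such rows inside the clusters 6 were tested, 1 was called higher and 1 lower, against 17.6% and 18.1% of all tested genes. Mira (chr6:52214491-52215288), a non-coding RNA between Hoxa6 and Hoxa7, had 387, 261 and 333 normalized counts in WT and 500.0, 440.0 and 549 in mutant embryos, without overlap, and rose by 0.60 ± 0.18 on the log2 scale (adjusted p = 0.033), in the same direction as Hoxa7 beside it. Without WT embryo 2 it was 0.46 on the log2 scale (adjusted p = 0.0631). Gm53 (chr11:96251660-96264484), between Hoxb13 and Hoxb9, had 97.5, 73.5 and 82.3 and 36.1, 30.3 and 36.3, and fell, with a log2 fold change of -1.30 ± 0.31 (adjusted p = 0.012), and the GC and length correction left -0.67 and, for Mira, 0.48, neither below an adjusted p of 0.05. Hoxaas3 (chr6:52201124-52213597) lies on the strand opposite to Hoxa5, Hoxa6 and a part of the Hoxa3 gene. It had 1305, 1409 and 1160.2 in WT and 701, 982 and 1118 in mutants, which did not overlap either, and a log2 fold change of -0.47 ± 0.17 (adjusted p = 0.0653). Haglr, at the end of the Hoxd cluster, had a log2 fold change of 0.55 ± 0.24 (adjusted p = 0.113). Hotair, the non-coding RNA of the Hoxc cluster, had 1 raw count in the 6 embryos together. The rows of the miR-10, miR-196 and miR-615 genes held at most 21.0 normalized counts in any embryo, and mature miRNAs are not measured by libraries of this kind.

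Of the 24 nearest rows beyond the cluster ends 14 were tested, 4 were called higher and 3 lower, against 17.6% and 18.1% of all tested genes. Evx1 (chr6:52313498-52318378), the homeobox gene of the primitive streak that follows Hoxa13, had 528, 788 and 431 in WT and 207, 179.7 and 340.0 in mutant embryos, without overlap. It fell, with a log2 fold change of -1.26 ± 0.30 (adjusted p = 0.0123), whereas Hoxa13 next to it had a positive value, and was -0.99 (adjusted p = 0.0219) without WT embryo 2. With the GC and length correction it was -0.60 (adjusted p = 0.236). Atp5g1 and Snx11, housekeeping genes on the flanks of the Hoxb cluster, fell, with log2 fold changes of -0.90 ± 0.14 (adjusted p = 0.00214) and -0.92 ± 0.19 (adjusted p = 0.00681). Lnp and Mtx2, which flank the Hoxd cluster, rose by 0.28 ± 0.07 on the log2 scale (adjusted p = 0.0175) and 0.24 ± 0.07 on the log2 scale (adjusted p = 0.0237). Of these 7 calls, 3 stayed with the GC and length correction, 1 turned in sign, 6 stayed without WT embryo 2 and 2 stayed whichever embryo was left out. The one that turned was Lnp, at a log2 fold change of -0.17, and Mtx2 was at 0.20 (adjusted p = 0.0695) without WT embryo 2.

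Of the 9 TALE cofactors 4 were called higher and 2 lower, against 17.6% and 18.1% of all tested genes, and the median log2 fold change was 0.09. Meis1 had 4571, 3206 and 4385 normalized counts in WT and 5406, 5752 and 5361 in mutant embryos, and rose by 0.44 ± 0.13 on the log2 scale (adjusted p = 0.0267). Meis2 rose by 0.46 ± 0.10 on the log2 scale (adjusted p = 0.00741), Pbx3 by 0.50 ± 0.09 on the log2 scale (adjusted p = 0.00424) and Pknox2 by 0.54 ± 0.14 on the log2 scale (adjusted p = 0.0189), whereas Pbx2 fell, with a log2 fold change of -0.39 ± 0.08 (adjusted p = 0.00606). The genotypes did not overlap for any of these genes. Of these 6 calls, 3 stayed with the GC and length correction, 1 turned in sign, 6 stayed without WT embryo 2 and 4 stayed whichever embryo was left out. With that correction Pbx2 was at -0.03 and Meis1 at 0.26 (adjusted p = 0.766 and 0.178).

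Of the 18 genes that start or position Hox transcription 2 were called higher and 3 lower, against 17.6% and 18.1% of all tested genes, with a median of -0.09. Gdf11, the TGF-beta ligand of the trunk-to-tail transition, had 577, 326 and 668 in WT and 893, 982 and 1071 in mutant embryos, and rose by 0.90 ± 0.24 on the log2 scale (adjusted p = 0.0193). Wnt3a, the WNT ligand of the caudal epiblast, had 519.8, 785 and 560.2 and 291, 382 and 232, and fell, with a log2 fold change of -1.04 ± 0.23 (adjusted p = 0.00907). Cyp26c1, which degrades retinoic acid, and Rarg, a retinoic acid receptor, fell as well, with log2 fold changes of -0.78 ± 0.12 (adjusted p = 0.002) and -0.44 ± 0.11 (adjusted p = 0.0164). Of these 5 calls, 2 stayed with the GC and length correction, 1 turned in sign, 4 stayed without WT embryo 2 and 2 stayed whichever embryo was left out. The one that turned was Rarg, at a log2 fold change of 0.15, while Cyp26c1 was at -0.06 and Wnt3a at -0.60 (adjusted p = 0.788 and 0.0871). Cdx2, the CDX gene with the highest counts, overlapped, at 2678, 3677 and 2152 in WT and 2181, 2465 and 3869 in mutant embryos, and had a log2 fold change of 0.00 ± 0.25 (adjusted p = 0.996). WT embryo 2 and Dnmt3b-/- embryo 3 were the highest for Cdx2 in their genotypes, as they were for the tailbud list that contains it.

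Of the 25 Polycomb and trithorax genes 6 were called higher and 5 lower, against 17.6% and 18.1% of all tested genes, with a median of 0.06. Bmi1, a subunit of Polycomb complex PRC1, had 4108, 3030.2 and 4526 in WT and 7156, 7875 and 7444 in mutant embryos, without overlap, and rose by 0.95 ± 0.14 on the log2 scale (adjusted p = 0.0017). Its partners in the same complex moved both ways, since the chromodomain subunit Cbx2 fell, with a log2 fold change of -0.72 ± 0.11 (adjusted p = 0.00231), while Phc1 rose by 0.58 ± 0.11 on the log2 scale (adjusted p = 0.00505) and the E3 ligase Rnf2 by 0.40 ± 0.07 on the log2 scale (adjusted p = 0.00252). Ezh2, the methyltransferase of PRC2, rose by 0.40 ± 0.11 on the log2 scale (adjusted p = 0.0207). Of these 11 calls, 5 stayed with the GC and length correction, 3 turned in sign, 11 stayed without WT embryo 2 and 7 stayed whichever embryo was left out. With that correction Rnf2 was at 0.01 and Ezh2 at 0.16 (adjusted p = 0.916 and 0.329). Among 7 genes described as targets of HOX proteins, 1 was higher and 0 were lower, against 17.6% and 18.1% of all tested genes: Epha7, an ephrin receptor, had 2704, 1821 and 2737 and 3732, 3927 and 3737 normalized counts, and rose by 0.65 ± 0.15 on the log2 scale (adjusted p = 0.00985), with 0.28 (adjusted p = 0.178) after the GC and length correction.

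Marker lists of embryonic tissues are given as members called higher and lower, beside 17.6% and 18.1% of all tested genes. For the caudal epiblast and tailbud list 0 of 7 were higher and 1 lower, for paraxial mesoderm 1 of 6 and 0, for neural plate and hindbrain 3 of 6 and 1, for lateral plate and limb field 2 of 6 and 0, for intermediate mesoderm 0 of 4 and 0, for heart 1 of 5 and 1, and for forebrain and midbrain, where Hox genes are silent, 1 of 5 and 0. With the GC and length correction 2 of the 4 neural plate and hindbrain calls stayed, and 1 of 2 each for lateral plate and heart. The 1 call each of paraxial mesoderm and forebrain stayed as well, and that of the tailbud list did not. Whichever embryo was left out, 1 of the 4 neural calls stayed and 2 of the 2 lateral plate calls. The paraxial mesoderm and tailbud calls stayed too, but 0 stayed for heart and 0 for forebrain. The neural plate and hindbrain list summed to 8360.1, 7134 and 8305 normalized counts in WT and 7601, 9349 and 10783 in mutant embryos, and the lateral plate and limb field list to 6509.9, 6845 and 5823 and 8434, 6451 and 7212, so that the genotypes overlapped for both. Their part in the Hox values was not tested.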

How the data were processed

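RNA-Seq measured transcripts in 6 whole E8.5 embryos, 3 WT and 3 Dnmt3b-/-, with 1 library each; the bisulfite libraries of the series were not analysed here. The authors depleted ribosomal RNA, made stranded total RNA libraries, aligned read pairs to mm10 with TopHat2 2.0.12 and counted pairs in RefSeq exons with HTSeq 0.6.0, and the deposited raw counts were used. The RefSeq release and the strand setting are not given in the sources used here. Per the file headers, the deposited table also holds the authors' normalized signal (count divided by a DESeq2 1.4.5 size factor), their log2 fold changes and their adjusted p-values, none of which was used here.

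Groups came from the sample labels. Genes whose mean reached 10 counts, 15114 in number, entered edgeR 4.0.16 (glmQLFit and glmQLFTest, TMM factors, R 4.3.3), and p-values were adjusted over all of them by the Benjamini-Hochberg method. A call is an adjusted p below 0.05, with a fold above 2 where stated. Fold changes are Dnmt3b-/- over WT, and errors are the absolute log2 fold change divided by the square root of F. Exon length, GC content and positions were taken from RefSeq GRCm38.p6 for 99.2% of the 24065 genes (22608 by symbol, 1259 by an older symbol). FPKM is the count scaled by the TMM library size and the exon length. Total counts ran from 41489332 to 58470286, and the limit of 3 counts covers counting error only. Alternatives were DESeq2 1.42.0, limma 3.58.1 (prior count of 1), RLE factors, total counts, other filters and thresholds, a replicate block, a spline correction for GC content and length (5 degrees of freedom) and leaving out each embryo. The fitting was tested on simulated data.

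The Hox genes and the lists were chosen with earlier results of these data known. All Hox genes could be named; values per embryo were given for those called, the most abundant of each cluster and the highest and lowest fold change of each cluster, and other lists gave at most 5 called members. Some genes that this rule would name are not reported here. Other Hox genes with values per embryo, Cdx2, Hoxaas3, Haglr, Hotair, the miRNA genes and Tbx4 were picked with their values in view. Promoter windows (250 bases) came from RefSeq.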

Additional observations from a re-analysis of the deposited data

How the results depend on the processing

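Of the 34 tested Hox genes, 12 were called higher with DESeq2, against 20.3% of all tested genes. The number was 4 with total counts as the scaling, against 14.2%, and 1 at an adjusted p below 0.01. When single embryos were left out it was 1 to 7, against 11.9% to 18.0%. With a fold above 2 as well it was 4 with the GC and length correction, 1 with the replicate block, 0 with total counts and 0 to 4 when single embryos were left out, and with a fold above 1.5 it was 8. Under the other alternatives these counts stayed within 1.5 times those reported, and no fit called a Hox gene lower. The median log2 fold change of the Hox genes stayed above 0 in every fit, from 0.30 without WT embryo 2 to 0.64 with the replicate block and the GC and length correction. That of Dnmt3b was -0.85 with the GC and length correction (adjusted p = 0.0617), -0.76 with the replicate block added (adjusted p = 0.0677), and -1.25 to -0.61 when single embryos were left out. The smallest change of Dnmt3b was -0.39 (edgeR adjusted p = 0.0426), with WT embryo 2 left out together with the GC and length correction. The WT level of paralogs 1-4, 5-9 and 10-13 was 16.3, 11.3 and 0.736 TPM, a different unit, and 0.549 FPKM for the tested genes of paralogs 10-13. Signs turned for genes that had not passed. Hoxa6 was at 0.058 with the GC and length correction, 0.23 with the replicate block added, 0.016 with limma and -0.71 to 0.25 when single embryos were left out. In the order GC and length correction, the same with the replicate block, and the same without WT embryo 2, Hoxb2 was at 0.30, 0.30 and 0.26, Hoxd1 at 0.15, 0.13 and 0.21, and Hoxd9 at 0.25, 0.25 and 0.28. The last of these settings was chosen after seeing the data, and 9 genes were called higher in it, 5 of them among the 9 reported. For all of these changes the cause was not tested.

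The sample labels do not state whether WT and mutant embryos of the same number belong together. Their deviations from the genotype means correlated at -0.05, -0.15 and -0.01, and no embryo correlated best with its own number. With the replicate block 8 Hox genes were called higher, against 14.4% of all tested genes. Of these 8, 7 were among the 9 reported, with Hoxb3 gained and Hoxb1 and Hoxb8 lost. The 5 genes left untested had at most 10 raw counts in any embryo, which limits what can be said of them.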

Other observations

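Tbx4, a gene of the allantois and hindlimb field chosen here after its values were seen, had 387, 889 and 493 normalized counts in WT embryos 1, 2 and 3 and 1090.2, 120.2 and 485 in Dnmt3b-/- embryos 1, 2 and 3. Hoxa11 had 51.5, 124 and 62.0 and 129, 24.5 and 71.4 in the same embryos. Both were high in WT embryo 2 and mutant 1 and lowest in mutant 2, and neither passed the test between the genotypes.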
